A study of Saccharomyces cerevisiae with 12 samples.

Results

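The nuclear-encoded respiratory chain and ATP synthase of Saccharomyces cerevisiae were followed as 35 named genes among the 6775 genes of the deposited tables. They were chosen by name as subunits of the machinery, with no measured value in the rule: 3 alternative NADH dehydrogenases (NDI1, NDE1 and NDE2), 4 subunits of complex II (SDH1 to SDH4), 9 of complex III (COR1, QCR2, QCR6 to QCR10, RIP1 and CYT1), 7 of complex IV (COX4, COX6 to COX9, COX12 and COX13) and 12 of ATP synthase (ATP1 to ATP5, ATP7, ATP14 to ATP18 and ATP20). All 35 genes were found and all 35 passed the filter on low counts in every comparison. In the R64 annotation none of the 35 overlaps another gene, none has a near-identical copy, and 2 (QCR9 and QCR10) carry an intron.

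RNA was sequenced from 1 anchor-away strain, Cyc8-AA, a Mata derivative of HHY221. It carries the tor1-1 allele, a disrupted FPR1 gene (fpr1::loxP-LEU2-loxP), the ribosomal anchor RPL13A2xFKBP12::loxP and the tagged target CYC8-FRB::HIS3. Rapamycin tethers the FRB-tagged Cyc8p to the anchor, which carries it out of the nucleus. Cyc8p is a subunit of the Tup1-Cyc8 co-repressor, and cells without it express flocculins and aggregate. Every culture was this strain in YPD at 30 °C, taken 4 h after the additions, and each of the 4 groups had 3 biological replicates. In the Flo+ Cyc8-AA experiment rapamycin at 1 µg/ml (+Rap) was compared with DMSO alone (-Rap). In the Flo- Cyc8-AA experiment 0.25 M mannose, which competes for the flocculins and prevents aggregation, was in both arms (+Rap +Man and -Rap +Man). All 4 groups carry the tor1-1 and fpr1 alleles, which make the strain insensitive to the growth effect of rapamycin. The question of the design was how far flocculation itself changes the response to loss of Cyc8p, and here that question was asked of the respiratory machinery.

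As background, electrons enter the yeast chain without a proton-pumping complex I. Ndi1p oxidises NADH inside mitochondria, Nde1p and Nde2p oxidise cytosolic NADH, and complex II (succinate dehydrogenase) passes electrons from succinate to ubiquinone. Complex III hands them to cytochrome c, complex IV reduces oxygen with them, and ATP synthase uses the proton gradient that complexes III and IV build. In glucose medium these genes are held low by glucose repression, and the Hap2/3/4/5 complex, which binds CCAAT boxes, is the known activator of many of them. Tup1-Cyc8 is brought to promoters by DNA-binding partners, among them Mig1p at glucose-repressed genes and Rox1p at hypoxic genes.

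The 500 bases before each start codon were read from RefSeq R64 and searched on both strands for 4 motifs. The core CCAAT was present before 32 of the 35 genes (91.4%) and before 62.4% of 6000 promoters of the same length. The longer ACCAATNA, which contains the core, was present before 16 of 35 (45.7%) and before 8.6% of all promoters. GCGGGG, a Mig1-type motif, was found before 7 of 35 (20.0%, against 5.8%), and ATTGTT, a Rox1-type motif, before 20 of 35 (57.1%, against 48.9%). A match is a description of the letters and no evidence of binding. The sequences below, written 5′ to 3′ on the strand of the gene and taken from RefSeq R64, show the match in capitals for 1 or more genes of every complex. They were chosen to set ACCAATNA genes beside NDE2 and QCR9, which rose in both experiments and carry GCGGGG but not ACCAATNA. The other GCGGGG members (SDH1, SDH3, QCR6, QCR7 and COX6) did not rise in both. QCR10 and COX9 rose in both without GCGGGG. In small letters, the SDH1 stretch also holds GCGGGG, and the COR1 and QCR9 stretches also hold CCAAT.
NDI1 (ACCAATNA, chrXIII:30008-30055, minus strand): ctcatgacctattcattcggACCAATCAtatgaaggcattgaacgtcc
NDE2 (GCGGGG, chrIV:303135-303162, plus strand): aaacccatcttGCGGGGattgtaccagg
SDH1 (ACCAATNA, chrXI:171420-171467, minus strand): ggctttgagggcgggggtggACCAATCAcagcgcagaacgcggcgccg
COR1 (ACCAATNA, chrII:135840-135887, minus strand): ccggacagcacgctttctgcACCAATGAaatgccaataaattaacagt
QCR9 (GCGGGG, chrVII:859648-859693, minus strand): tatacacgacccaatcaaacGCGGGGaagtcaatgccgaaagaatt
RIP1 (ACCAATNA, chrV:106992-107039, plus strand): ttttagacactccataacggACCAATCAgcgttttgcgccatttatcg
COX8 (ACCAATNA, chrXII:910140-910187, minus strand): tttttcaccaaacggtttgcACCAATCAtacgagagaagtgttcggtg
ATP3 (ACCAATNA, chrII:315359-315406, plus strand): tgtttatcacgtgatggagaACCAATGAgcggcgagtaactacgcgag
ATP15 (ACCAATNA, chrXVI:29934-29963, plus strand): cttttatacgaACCAATGAaatttgatcct

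Of the 17 ACCAATNA matches, 12 lay between 170 and 250 bases before the start codon, as the map of motif positions shows. The 3 members with no CCAAT in the window were COX4 and the members with the highest and the lowest difference between experiments, NDE2 and CYT1. None of the 4 genes that rose in both experiments (NDE2, QCR9, QCR10 and COX9) held ACCAATNA, which says only that these letters are not in the window. The 16 members with ACCAATNA had median depletion ratios of 0.41 (Flo+) and 0.27 (Flo-) on the log2 scale, and the 19 without it 0.47 and 0.39. For GCGGGG the medians were 0.47 and 0.33 in the 7 members with it, and 0.43 and 0.32 in the 28 without.

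**Figure D1:**
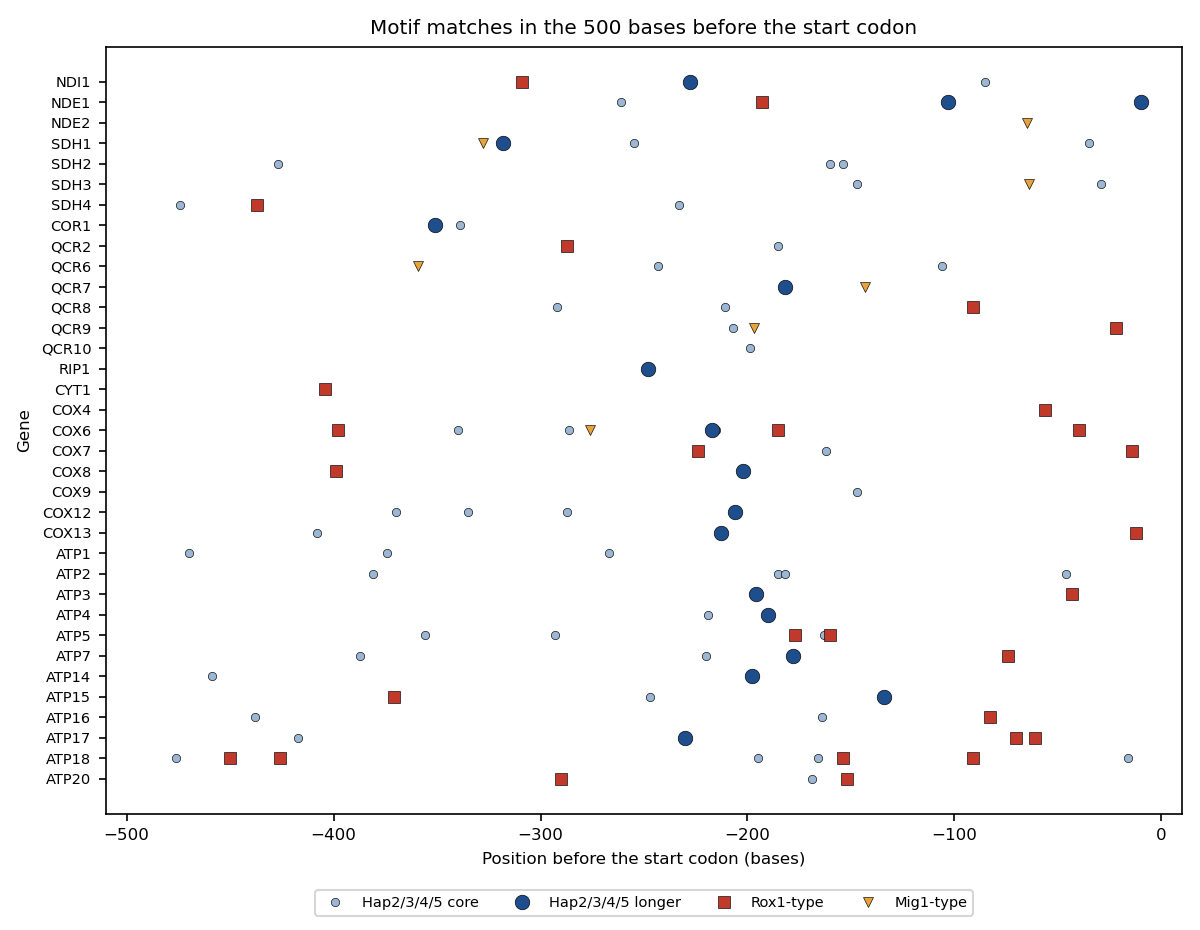
Matches to 4 motifs in the 500 bases before the start codon of the 35 genes. The horizontal axis gives the position in bases before the start codon and each row is a gene. Small pale circles are the CCAAT core, large dark circles ACCAATNA, squares the Rox1-type and triangles the Mig1-type motif. 12 of the 17 ACCAATNA matches fall between 170 and 250 bases before the start.

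The libraries held 26125728 to 30562700 counts in the Flo+ experiment and 35905327 to 51088194 in the Flo- experiment. The members took 1.08% to 1.43% of the counts in -Rap, 1.30% to 1.38% in +Rap, 1.18% to 1.37% in -Rap +Man and 0.998% to 1.09% in +Rap +Man. Levels below are counts scaled by the trimmed mean of M values (TMM), called normalized counts, so a ratio is relative to the bulk of genes. Scaled by library totals alone, which was tried only once the data had been seen, the median log2 ratio of all genes moved from -0.02 to -0.36 (Flo+) and from -0.04 to -0.65 (Flo-). The share of higher calls among all called genes was 61.1% with TMM and 26.5% with library totals in Flo+, and 56.4% and 19.1% in Flo-. A change of scaling shifts the log2 ratios of all genes by nearly the same amount. Each member therefore stayed on the same side of the median of all genes under all 4 scalings tried. This held in the Flo+ and Flo- ratios and in their difference, and is no support for a result. Transcripts of CYC8, whose protein rather than mRNA is the target, differed by 0.42 (Flo+, adjusted p = 0.048) and -0.30 (Flo-, adjusted p = 0.11) on the log2 scale, so the mRNA does not check the depletion. Mata marker genes summed to 17197 to 120411 normalized counts in the samples and alpha marker genes to 947 to 1684.

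A single library stood apart for these genes. The -Rap replicate 3 culture was the highest of the 3 -Rap samples for 34 of the 35 members, with a median of 0.50 on the log2 scale above the mean of the other replicates, while it was the highest for 37.9% of all genes. The exception was NDE1, where it was the lowest. The 67 mitochondrial ribosomal protein genes were also higher in that culture, by a median of 0.51. The Flo+ results are given with and without it, and what set this culture apart was not tested. In +Rap +Man the replicate 3 culture was the lowest for 30 of the 35 members, beside 35.6% of all genes. Its median against the other replicates was -0.21 over the members, beside -0.01 over all genes.

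**Figure D2:**
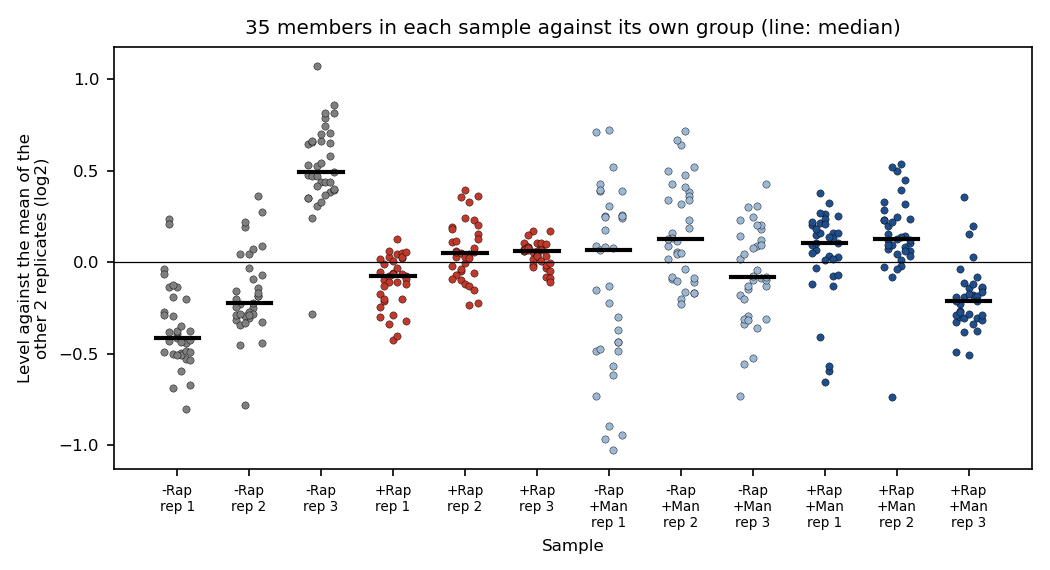
Level of each of the 35 members in each of the 12 samples against the mean of the other 2 replicates of its group. The vertical axis is a log2 difference, each point is a gene and the line is the median over the 35. The points of -Rap replicate 3 lie above 0 for 34 of 35 genes with a median of 0.50.

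Relative to the median of all genes, 34 of the 35 respiratory genes had a higher ratio in Flo+, and in Flo- 28 were higher and 7 lower. Few of them passed the test across all genes. In the Flo+ ratio 6 members rose at an adjusted p of at most 0.01 (limma, two-sided, Benjamini-Hochberg over 6100 genes). They were the 3 NADH dehydrogenases, the complex III subunits QCR9 and QCR10, and COX9 of complex IV. That was 17.1% of the members, beside 15.5% of all genes tested. None fell, beside 9.89% of all genes, and none was lower at an unadjusted p under 0.05 by limma with or without voom weights. The thresholds of the study, which also ask for a log2 change of at least 1, were met by NDI1, NDE2 and QCR10 (8.57% of members, 11.0% of all genes) and downwards by none (2.08% of all genes). The median of the 35 log2 ratios was 0.44, beside -0.02 for all genes, and 34 of the 35 lay above the median of all genes. Counted from 0 the number was 34 with TMM (97.1%, beside 48.7% of all genes positive and 51.3% negative). With library totals it was 27 (22.9% negative, beside 71.2% of all genes). Under that scaling only NDI1 and NDE2 rose (5.71%, beside 11.3% of all genes). At an adjusted p of at most 0.05, 15 members were higher (42.9%, beside 23.1% of all genes) and none lower (20.3%). In 18 members (51.4%, beside 28.5% of all genes) all +Rap samples were higher than all -Rap samples, and in none were they all lower (27.8% of all genes).

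The number that rose depended on a single control library. Without -Rap replicate 3, 27 members rose (77.1%, beside 22.3% of all genes), the median was 0.66, and the 27 included the 6 above. That library stood apart by its high levels of these same genes except NDE1, so leaving it out raises the ratios of the others. For NDE1 the Flo+ ratio went from 1.75 to 1.64. Values without that library, here and below, show how far results depend on it and are no support for a rise. By complex the 27 were 3 NADH dehydrogenases, 4 complex II, 6 complex III, 7 complex IV and 7 ATP synthase genes. Without that culture the Flo+ ratios were 2.43 for NDI1 and 1.64 for NDE1 (adjusted p = 8.7e-05 and 0.0010), and NDE2 was at a log2 ratio of 3.59 (adjusted p = 2.7e-07). In complex II they were 1.75 for SDH1, 2.00 for SDH2, 1.64 for SDH3 and 2.47 for SDH4 (adjusted p = 0.0028, 0.00069, 0.0014 and 0.00014). QCR9 and QCR10 were at 1.99 and 2.50, COX6 at 1.59, COX8 at 1.37 and COX9 at 1.94, ATP3 at 1.41 and ATP15 at 1.58, all past the test. CYT1 (1.06), QCR6 (1.20), RIP1 (1.32) and ATP18 (1.03) were among the 8 that did not pass. Leaving out +Rap replicate 2 or +Rap replicate 3 left 3 (9.26% and 9.53% of all genes). With -Rap replicate 1, -Rap replicate 2 or +Rap replicate 1 left out, 4 rose (11.4%, beside 12.6%, 12.9% and 10.7% of all genes). Without -Rap replicate 3, 5 met the size threshold. QCR10 passed in full and without -Rap replicate 3, and lost its call when any other Flo+ library was left out (adjusted p = 0.020 to 0.036). Each control culture was the other part of a divided culture, and with this pairing as a replicate block 12 members rose (17.7% of all genes), the additions being SDH1, SDH2, SDH4, QCR8, COX4 and ATP1. By pair, the median log2 ratio of the members was 0.65, 0.62 and 0.16 for replicates 1, 2 and 3.

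In the Flo- ratio 7 members rose (NDE2, SDH3, SDH4, QCR9, QCR10, COX9 and ATP15), 20.0% of the members and 20.0% of the 6325 genes tested. QCR6 and CYT1 of complex III fell, 5.71% of the members beside 15.5% of all genes. Only NDE2 and SDH4 met the size threshold upwards (5.71%, beside 14.8%) and none downwards (2.59% of all genes), CYT1, at -0.99, lying just short of it. The median was 0.33, beside -0.04 for all genes. 28 members lay above the median of all genes. The number above 0 was 28 with TMM (80.0%, beside 47.2% of all genes positive and 52.8% negative). With library totals it was 9 (74.3% negative, beside 75.9% of all genes). All samples of the depleted group were higher than all controls in 12 members (34.3%, beside 28.5%). At an adjusted p of at most 0.05, 9 members were higher (25.7%, beside 25.7% of all genes) and 2 lower (beside 26.1%). All depleted samples were lower in COR1, QCR6, CYT1 and ATP3 (11.4%, beside 33.4%). With the replicate block 10 members rose (28.6%, beside 24.6% of all genes), NDI1, SDH2 and COX4 being added, and 2 fell (beside 23.3%). With library totals 2 members rose (NDE2 and SDH4, 5.71%, beside 11.5% of all genes). Under it 6 fell (COR1, QCR2, QCR6, CYT1, COX6 and ATP3, 17.1%, beside 48.5%).

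**Figure D3:**
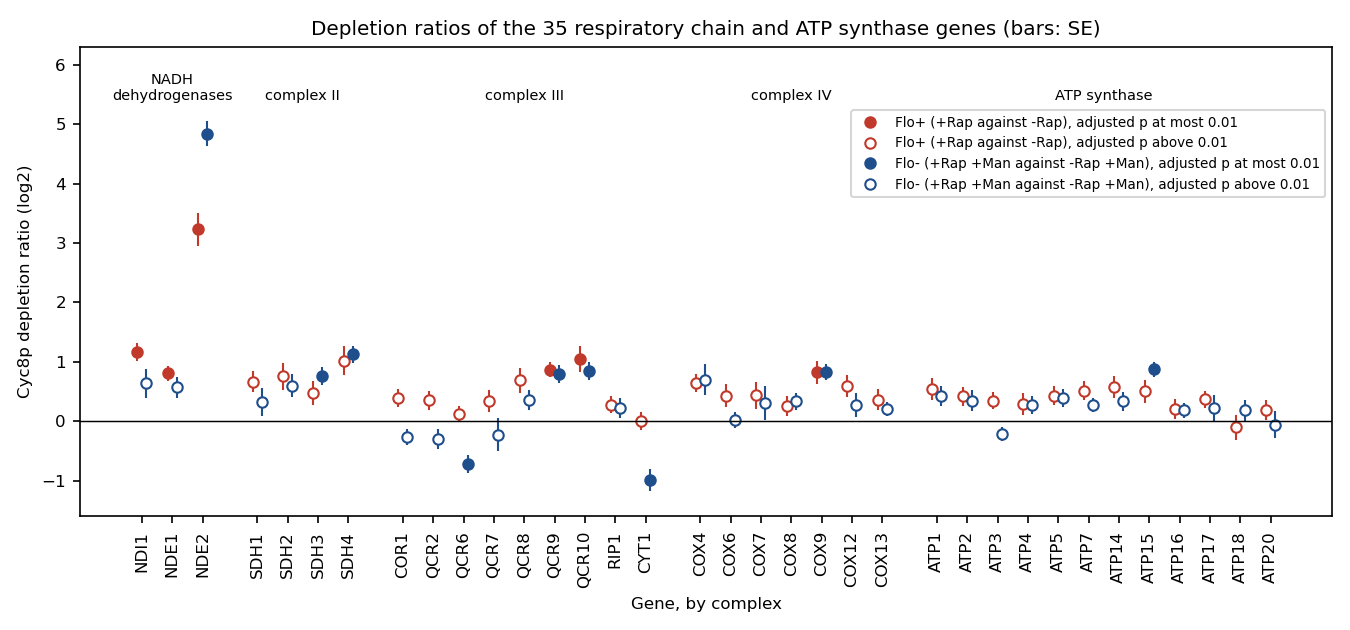
Depletion ratios of the 35 genes by complex. The vertical axis is the log2 ratio of depleted over control samples with TMM scaling, bars are standard errors, red is Flo+ and blue is Flo-, and filled points have an adjusted p of at most 0.01. NDE2 lies far above the other genes at 3.23 and 4.84, and CYT1 and QCR6 fell in Flo- at -0.99 and -0.72. Scaled by library totals, the number of positive ratios drops from 34 to 27 (Flo+) and from 28 to 9 (Flo-).

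The NADH dehydrogenases held the member with the highest ratio in either experiment. NDE2, the external enzyme that is the minor partner of NDE1, was at 189, 151 and 358 normalized counts in -Rap and at 1983, 1960 and 2221 in +Rap. With mannose it was at 129, 126 and 104 in the controls and at 4056, 2422 and 4018 after depletion. The groups were far apart in both experiments. NDE2 rose 9.39-fold in Flo+ (log2 3.23 ± 0.28 SE, adjusted p = 7.7e-05) and 28.7-fold in Flo- (4.84 ± 0.22, adjusted p = 1.5e-07), with n = 3 per group in this and every comparison.

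NDI1, the internal enzyme that feeds matrix NADH to the chain, was at 5239, 4602 and 6258 in -Rap and at 10390, 13065 and 12520 in +Rap. It was at 6214, 4501 and 3186 in -Rap +Man and at 7486, 7781 and 5427 in +Rap +Man. The groups were apart without mannose and overlapped with it. NDI1 rose 2.24-fold in Flo+ (log2 1.17 ± 0.15, adjusted p = 0.00063), and its Flo- ratio of 1.56 did not pass (0.64 ± 0.25, adjusted p = 0.055). NDI1 passed in Flo- with the replicate block (adjusted p = 0.0013) and without -Rap +Man replicate 1 (adjusted p = 0.0060). NDE1, the main external enzyme, rose 1.75-fold in Flo+ (0.81 ± 0.12, adjusted p = 0.0016) and had a Flo- ratio of 1.48 (adjusted p = 0.025), at mean levels between 38120 and 68521. NDE1 lost its Flo+ call without +Rap replicate 3 (adjusted p = 0.013) and passed in Flo- without -Rap +Man replicate 1 (adjusted p = 0.0031).

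**Figure D4:**
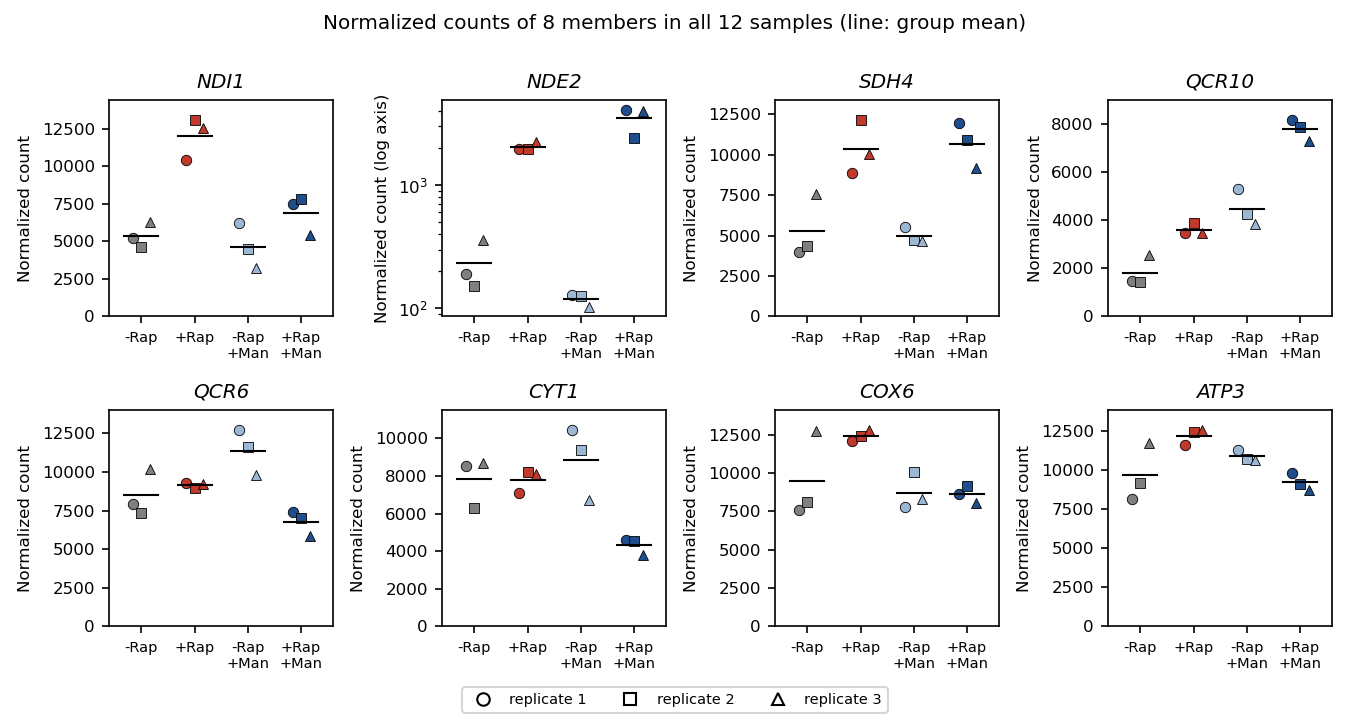
Normalized counts of 8 members in all 12 samples. The vertical axes start at 0 except for NDE2, which is on a log axis. Symbols mark the replicate number, colours the group and lines the group mean. NDE2 rose in both experiments, QCR6 and CYT1 were lower in all +Rap +Man samples than in all -Rap +Man samples, and the triangle of -Rap replicate 3 is the highest of its group in every panel.

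In complex II the 2 membrane anchor genes rose in Flo-. SDH4, an anchor subunit, was at 3970, 4365 and 7551 in -Rap and at 8859, 12152 and 10049 in +Rap. With mannose it went from 5534, 4708 and 4661 to 11952, 10942 and 9190. The groups were apart in both experiments. SDH4 rose 2.19-fold in Flo- (log2 1.13 ± 0.14, adjusted p = 0.00022). Its Flo+ ratio of 2.03 was nearly as large with a wider spread (1.02 ± 0.24, adjusted p = 0.012), and it passed with the replicate block (adjusted p = 0.0021).

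SDH3, the other anchor subunit, was at 6099, 7153 and 10805 in -Rap and at 9834, 12030 and 10635 in +Rap, so these groups overlapped through -Rap replicate 3. It was at 6738, 8712 and 8701 in -Rap +Man and at 14292, 14195 and 11545 in +Rap +Man, where the groups were apart, and rose 1.70-fold in Flo- (0.76 ± 0.14, adjusted p = 0.0022). SDH3 lost that call without +Rap +Man replicate 1 or 2 (adjusted p = 0.019 and 0.021). SDH1, the flavoprotein subunit, was at 12649, 11695 and 16485 in -Rap and at 17517, 25577 and 21635 in +Rap. With mannose it was at 16544, 10775 and 9302 and then at 16482, 16343 and 11532, which overlap. Its ratios of 1.59 (adjusted p = 0.020) and 1.26 (adjusted p = 0.27) did not pass. SDH2, the iron-sulphur subunit, had ratios of 1.69 (adjusted p = 0.028) and 1.52 (adjusted p = 0.024). With the block SDH1 and SDH2 passed in Flo+ (adjusted p = 0.0087 and 0.0049) and SDH2 in Flo- (adjusted p = 0.0013).

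Complex III, in Flo- and with TMM scaling, was the only complex with members that rose and members that fell. CYT1, which encodes cytochrome c1, was at 8557, 6312 and 8693 in -Rap and at 7099, 8225 and 8112 in +Rap, with no separation. With mannose it was at 10454, 9378 and 6732 in the controls and at 4587, 4532 and 3788 after depletion, with every depleted sample below every control. CYT1 fell to a ratio of 0.502 in Flo- (log2 -0.99 ± 0.18, adjusted p = 0.0018). QCR6, an acidic hinge subunit next to cytochrome c1, fell to 0.607 (-0.72 ± 0.15, adjusted p = 0.0038), and lost the call (adjusted p = 0.011 to 0.016) when -Rap +Man replicate 2, +Rap +Man replicate 2 or +Rap +Man replicate 3 was left out. In Flo+ the ratios of CYT1 and QCR6 were 1.00 and 1.09.

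QCR9 and QCR10, small accessory subunits, went the other way. QCR10 was at 1460, 1414 and 2536 in -Rap and at 3474, 3860 and 3456 in +Rap, and at 5293, 4246 and 3830 in -Rap +Man and at 8160, 7888 and 7269 in +Rap +Man. The groups were apart in both experiments. QCR10 rose 2.07-fold in Flo+ (1.05 ± 0.22, adjusted p = 0.0062) and 1.79-fold in Flo- (0.84 ± 0.15, adjusted p = 0.0016). QCR9 rose 1.83-fold (adjusted p = 0.0014) and 1.73-fold (adjusted p = 0.0024). QCR9 lost its Flo+ call without +Rap replicate 2 (adjusted p = 0.013) and its Flo- call when any +Rap +Man library was left out (adjusted p = 0.011 to 0.020). RIP1, the Rieske iron-sulphur protein, was at 9649, 8705 and 11716 in -Rap and at 10780, 13144 and 12408 in +Rap. It was at 12673, 18558 and 16940 in -Rap +Man and at 18612, 20218 and 15914 in +Rap +Man. RIP1 groups overlapped in both experiments, with ratios of 1.22 (adjusted p = 0.15) and 1.17 (adjusted p = 0.28). The core subunits COR1 and QCR2 had Flo+ ratios of 1.31 and 1.28 and Flo- ratios of 0.832 and 0.815, none past the test. QCR7 and QCR8, which sit beside cytochrome b, had Flo+ ratios of 1.27 and 1.61 and Flo- ratios of 0.857 and 1.28.

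Among the complex IV members only COX9 (subunit VIIa) rose. It rose 1.77-fold in Flo+ (log2 0.83 ± 0.19, adjusted p = 0.0099) and 1.78-fold in Flo- (0.83 ± 0.13, adjusted p = 0.00087). Its Flo+ call sat on the threshold and was lost (adjusted p = 0.010 to 0.049) in 10 of 15 alternatives, among them every omission of a Flo+ library except -Rap replicate 3. COX6 (subunit VI) was at 7615, 8077 and 12774 in -Rap and at 12108, 12412 and 12815 in +Rap. With mannose it was at 7815, 10055 and 8286 and then at 8659, 9142 and 8067. In COX6 a lone control, -Rap replicate 3, reached the depleted level, and the mannose groups lay within each other. COX8 (subunit VIII) was at 2092, 2403 and 3351 in -Rap and at 2977, 3176 and 3046 in +Rap, which overlap, and at 5908, 8040 and 7953 in -Rap +Man and 9514, 9304 and 8115 in +Rap +Man. The mannose groups of COX8 were apart, by a narrow margin, and its ratio of 1.26 did not pass (adjusted p = 0.076). The other complex IV ratios ran from 1.29 to 1.56 in Flo+ and from 1.15 to 1.63 in Flo-. Of these COX4, the zinc-binding subunit, was highest in both (Flo+ adjusted p = 0.013 and Flo- adjusted p = 0.052), and passed in both with the replicate block (adjusted p = 0.0056 and 0.00058).

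In ATP synthase 1 of 12 genes rose. ATP15, the epsilon subunit of the central stalk, rose 1.84-fold in Flo- (log2 0.88 ± 0.13, adjusted p = 0.00052), from 7670, 7543 and 6949 to 15061, 12813 and 12163. In Flo+ it went from 1189, 1810 and 2033 to 2384, 2280 and 2289, groups that were apart with a ratio of 1.42 (adjusted p = 0.063). ATP3, the gamma subunit of the stalk, was at 8177, 9197 and 11779 in -Rap and at 11612, 12457 and 12587 in +Rap. It was at 11284, 10704 and 10679 in -Rap +Man and at 9840, 9140 and 8749 in +Rap +Man. The mannose groups of ATP3 were apart in the downward direction, but the ratio of 0.866 did not pass (-0.21 ± 0.12, adjusted p = 0.16). The catalytic head genes ATP1 (alpha) and ATP2 (beta) had ratios of 1.46 and 1.34 in Flo+ and 1.34 and 1.27 in Flo-, none past the test, although with the block ATP1 passed in Flo+ (adjusted p = 0.0077). The remaining 8 genes, of the peripheral stalk, the delta subunit and the membrane part, had Flo+ ratios of 0.935 (ATP18) to 1.50 (ATP14) and Flo- ratios of 0.961 (ATP20) to 1.31 (ATP5), and none passed.

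The difference in ratios, Flo- minus Flo+, asks whether the depletion ratio differed between the experiments. Flocculation, mannose, read type and time of sequencing all differ between them and cannot be told apart in this difference. No member passed at an adjusted p of 0.01 by limma, with or without voom weights, beside 2.87% of 6403 genes higher and 1.75% lower (2.61% and 1.16% with the size threshold). At an adjusted p of at most 0.05, 1 member was higher (beside 6.89% of all genes) and 3 lower (8.57%, beside 6.92%). At an unadjusted p under 0.05 NDE2 was higher and COR1, QCR2, QCR6, CYT1 and ATP3 lower. NDE2 had a difference of 1.59 on the log2 scale (95% interval 0.74 to 2.43, adjusted p = 0.019), CYT1 of -1.03 (-1.56 to -0.50, adjusted p = 0.016) and QCR6 of -0.87 (-1.32 to -0.42, adjusted p = 0.016). All 3 passed with the replicate block (adjusted p = 0.0081 for NDE2, 0.0070 for CYT1 and 0.0067 for QCR6, beside 3.94% of all genes higher and 2.50% lower). Without -Rap replicate 3 the call went to COR1, QCR6 and ATP3, all lower (beside 1.98% of all genes lower). Without -Rap replicate 2 it went to NDE2, and without -Rap +Man replicate 3 to CYT1.

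The differences are given here by complex, and whether complexes differ from each other was not tested. All 9 complex III members had a lower ratio in Flo- than in Flo+, with a median difference of -0.60 and a range of -1.03 to -0.08, beside a median of -0.01 for all genes. Negative differences were also found in 28 of all 35 members (80.0%, beside 50.6% of all genes), among them 10 of 12 ATP synthase and 5 of 7 complex IV genes. The 9 of complex III stayed negative under all 4 scalings, but RIP1 and QCR9 turned slightly positive, up to 0.03 and 0.02, when single libraries were left out. The other complexes had medians of -0.05 (complex II), -0.15 (complex IV), -0.13 (ATP synthase) and -0.26 (NADH dehydrogenases). For most single members the interval was wide: that of RIP1 ran from -0.59 to 0.42 and that of COX4 from -0.74 to 0.80, so no statement that they act alike in both experiments is made.

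Several parts of the chain come as a major gene and a minor relative. This grouping was made after the values were seen, and AAC3, PET9, SDH9, SHH3, COX26 and CYC3 were chosen for naming then. CYC7, the minor cytochrome c that is repressed by oxygen, rose 12.9-fold in Flo+ (adjusted p = 1.2e-06) and 15.7-fold in Flo- (adjusted p = 2.4e-06). CYC1, the major form, had a Flo+ ratio of 1.10 (adjusted p = 0.45) and fell to 0.582 in Flo- (adjusted p = 0.0072). AAC3, the ADP/ATP carrier used without oxygen, rose 4.32-fold and 14.7-fold (adjusted p = 0.0017 and 8.7e-08), while PET9, the main carrier, had ratios of 1.52 and 1.58 (adjusted p = 0.014 and 0.012). Without -Rap replicate 3 the Flo+ ratios were 14.4 for CYC7, 3.28 for AAC3 and 1.60 for PET9, which then passed (adjusted p = 0.0071). SDH9, a relative of SDH1, rose 4.25-fold and 16.7-fold (adjusted p = 4.7e-06 and 8.3e-07), and SHH3, a relative of SDH3, 2.62-fold and 30.5-fold (adjusted p = 0.00050 and 3.2e-07). Not every relative went so far. AAC1, also an ADP/ATP carrier gene, passed in neither, with mean normalized counts of 590 in -Rap and 562 in +Rap, and 1003 and 1008 with mannose. SHH4, on the same list as SDH9 and SHH3, did not pass in Flo+ (log2 0.43) and rose in Flo- (log2 0.85). Without -Rap replicate 3 SHH4 passed in Flo+ (1.42, adjusted p = 0.0083). COX5B, the hypoxic form of complex IV subunit V, did not pass, at ratios of 0.801 (adjusted p = 0.22) and 0.863 (adjusted p = 0.43), beside 1.23 and 0.943 for COX5A. COX5A passed in Flo+ without -Rap replicate 3 (1.34, adjusted p = 0.0066).

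Of the inhibitors of ATP synthase, INH1, which blocks ATP hydrolysis, rose 2.15-fold and 1.85-fold (adjusted p = 0.0011 and 0.00041), and its relative STF1 2.41-fold and 3.37-fold (adjusted p = 0.0044 and 0.00016). STF2, listed with them but not counted as an inhibitor, rose 2.56-fold in Flo- (adjusted p = 0.00078). It had a Flo+ ratio of 1.52 (adjusted p = 0.14), which passed without -Rap replicate 3 (1.93, adjusted p = 0.0036). Its difference between experiments did not pass (adjusted p = 0.26). The small subunit genes TIM11 and ATP19 passed in neither experiment, with ratios from 0.977 to 1.37, but ATP19 passed in Flo+ without -Rap replicate 3 (1.57, adjusted p = 0.0022). Of the 38 assembly factors 2 rose and 1 fell in Flo+ and 6 rose and 6 fell in Flo- (15.8% each way, beside 20.0% and 15.5% of all genes), with medians of -0.03 and -0.0049. In Flo+ the shares were 5.26% and 2.63%, beside 15.5% and 9.89% of all genes, and without -Rap replicate 3 11 assembly factors rose (28.9%, beside 22.3%). COX26, a small protein of respiratory supercomplexes, rose 8.10-fold and 19.6-fold (adjusted p = 2.8e-05 and 3.9e-05), and CYC3, the haem lyase of cytochrome c, 1.98-fold and 2.01-fold (adjusted p = 0.0014 and 0.00046).

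Of the 11 tricarboxylic acid cycle genes, which supply the electrons, 4 rose in Flo+ (ACO1, IDH2, KGD1 and MDH1) and 3 in Flo- (IDH2, LSC2 and FUM1), and none fell. These were 36.4% and 27.3% of the list, beside 15.5% and 20.0% of all genes, and the medians were 0.74 and 0.64. Without -Rap replicate 3, 7 rose in Flo+ (63.6%, beside 22.3%). With the replicate block 6 rose in each experiment (54.5%, beside 17.7% of all genes in Flo+ and 24.6% in Flo-). With library totals 1 rose in Flo+ (9.09%, beside 11.3% of all genes). In Flo- none rose (beside 11.5%) and 1 fell (9.09%, beside 48.5%). The 67 mitochondrial ribosomal protein genes had medians of -0.29 and -0.33, with 0 rising and 3 falling in Flo+ (4.48%, beside 9.89% of all genes) and 1 rising and 9 falling in Flo- (13.4%, beside 15.5%). With the replicate block 22 fell in Flo- (32.8%, beside 23.3%). Without -Rap replicate 3 their Flo+ median was -0.10 with 2 rising and 8 falling of 66 tested (12.1%, beside 20.2%). With library totals 30 of them fell in Flo+ and 52 in Flo- (44.8% and 77.6%, beside 31.3% and 48.5% of all genes). Of the assembly factors 6 and 20 fell under that scaling (15.8% and 52.6%, beside the same shares of all genes). Of the Hap genes, HAP4, the regulated activation subunit, had a Flo+ ratio of 1.41 (adjusted p = 0.028) and rose 1.88-fold in Flo- (adjusted p = 0.0016), and HAP2 fell to 0.545 in Flo- (adjusted p = 0.0012). None of the 5 Hap genes passed in the difference in ratios. Of the repressor genes, MIG1 rose 1.46-fold in Flo+ (adjusted p = 0.0096) and ROX1 2.27-fold in Flo- (adjusted p = 0.00017), and TUP1 passed in neither (ratios of 0.929 and 1.14). Of 8 mitochondrially encoded genes on the list, 7 were in the table by name and 4 passed the filter in the Flo+ fit. None of the 4 passed the test, with a median of 0.57, and only 1 gene of the list could be tested in Flo-. Levels of the 4 in -Rap +Man were lower than in -Rap by a median log2 difference of -5.51. Raw counts were low in both Flo- groups, at 21 to 48 (COX1), 1 to 11 (ATP6), 0 to 11 (OLI1) and 0 to 1 (VAR1). Mannose cannot be told apart from read type and sequencing run in that difference.

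Per kilobase of coding length, the order of the members in -Rap was led by ATP2 at 55583 ± 8907 normalized counts per kilobase (SD, n = 3), ATP1 at 28909 ± 5525 and NDE1 at 23406 ± 2786. ATP1 and NDE1 are neighbours whose levels do not differ beyond their spread. NDI1 at 3480 ± 542 and NDE2 at 142 ± 67.2 were the lowest 2, and NDE2 remained the lowest of the 35 in all groups, at 1255 ± 88.2 in +Rap and 2136 ± 569 in +Rap +Man.

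Levels of a gene in the 2 experiments could not be read as an effect of mannose, because the Flo+ libraries were paired-end and the Flo- libraries single-end and run at another time. The difference was larger in short members. The 9 members with a coding length under 300 bases had a median log2 difference of 1.50 between -Rap +Man and -Rap (range 0.54 to 2.42), and the 26 longer members one of 0.14. Short genes outside the members also stood higher. Over all genes with a coding length, the 268 under 300 bases had a median of 0.79 and the 5534 longer ones of -0.01. Over the 35 members, which share all libraries, the difference correlated with log2 coding length at a Pearson r of -0.81 (Spearman rho -0.81), and over 5802 genes at -0.06 (-0.13). For the depletion ratios, where both arms share a read type, the same r was 0.27 (Flo+) and 0.12 (Flo-) over the members. Over all genes with a coding length it was -0.07 (Spearman -0.03) in Flo+, -0.19 (-0.32) in Flo- and -0.27 (-0.39) in the difference in ratios. Mannose and the sequencing run cannot be told apart in the control difference.

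**Figure D5:**
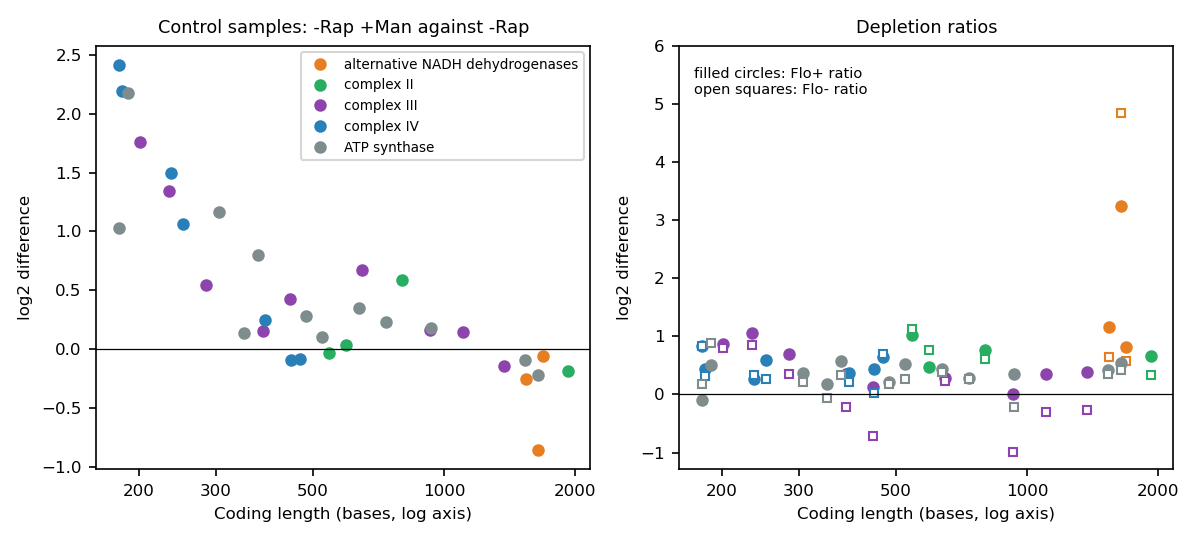
Difference in level against coding length for the 35 members. The horizontal axes give coding length in bases on a log axis, colours mark the complex, and each point is a gene. On the left, the log2 difference between -Rap +Man and -Rap controls falls with length, with a median of 1.50 for the 9 genes under 300 bases and of 0.14 for the others. On the right, the Flo+ (filled circles) and Flo- (open squares) depletion ratios have a Pearson r with log2 length of 0.27 and 0.12.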

How the data were processed

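Total RNA of 12 yeast cultures was depleted of ribosomal RNA and sequenced with strand-specific libraries by the study. The authors trimmed reads with fastp 0.20.0 and mapped them with STAR 2.7.3 to the S288c genome from ENSEMBL (the release is not given in the sources used here). The deposited tables hold raw read counts per gene and, used here only as an alternative, counts that the authors had normalised by size factors. Both are written with commas in large numbers, which were removed. The number of per-sample columns left without a sample was 0. The Flo+ libraries were paired-end and the Flo- libraries single-end. The counting tool and its strand setting are not given in the sources used here.

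The deposited counts were filtered (at least 10 counts in a library of median size in 3 samples and 15 in total), scaled by TMM and tested as log2(count + 2) with limma 3.58.1 in R 4.3.3 (lmFit, eBayes with trend, two-sided). A fold change is on that scale, which understates changes of low genes. The thresholds were an adjusted p of 0.01 (Benjamini-Hochberg over all genes tested) and, for size, a log2 value of 1. Flo+ and Flo- ratios were fitted on their own 6 samples, the difference on all 12. Alternatives were relative log expression, library totals and the deposited normalised counts as scaling, no filter, a pseudocount of 0.5, voom weights, the replicate block, a fit of all 12 samples, a threshold of 0.05 and leaving out each library. The limma code was tested on simulated data. No pair of replicates agreed within sampling noise.

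The study divided each culture in 2, so replicate numbers pair control and depleted samples. The deviations of same-numbered samples correlated at 0.14, 0.10 and 0.16 (Flo+) and 0.44, 0.17 and 0.20 (Flo-). Values with the replicate block are given where they change a call or a count. Where a p is given for 3 against 3 samples it comes from the limma fit across all genes.

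Values in every sample are given for each member that passed the test with a log2 size of at least 1, and for the members with the highest and lowest difference in ratios in each complex. The members and lists were chosen with earlier results of these data known. Matching by systematic name found 6216 of 6775 genes in RefSeq R64. Copies were sought with BLAST+ 2.17.0 (90% identity over 50% of the coding sequence). Columns of the authors' own comparisons were not used.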

Additional observations from a re-analysis of the deposited data

Results flagged for a closer look

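SDH9 and SHH3, relatives of the complex II genes SDH1 and SDH3, were the genes among those named whose depletion ratio differed between the experiments by the test of the difference itself. SDH9 had a difference of 1.95 on the log2 scale (Flo- minus Flo+, adjusted p = 0.00059 by limma). Its mean was 193 ± 4.64 normalized counts (SD, n = 3) in -Rap and 94.0 ± 16.5 in -Rap +Man, and it was at 772, 877 and 825 in +Rap and at 1926, 1125 and 1746 in +Rap +Man. SHH3 had a difference of 3.53 (adjusted p = 1.3e-05). Its controls were at 191, 203 and 192 without mannose and at 27.7, 27.4 and 19.6 with it, while its depleted samples were at 423, 646 and 493 and at 926, 590 and 937. For both genes the -Rap +Man controls were lower than the -Rap controls, and every +Rap +Man sample but the SHH3 one of replicate 2 was higher than every +Rap sample. The control levels of the experiments cannot be told apart from the sequencing run.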

How the results depend on the processing

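Over 15 alternatives, 455 of 525 single-gene Flo+ values and 472 of 525 Flo- values kept their direction and side of the threshold, as did 647 of 700 for the difference in ratios over 20 alternatives. Scaling by library totals, tried after the data had been seen, left 2 members rising in Flo+ (1 with size, median 0.092) and in Flo- 2 rising, 6 falling, 1 up and 2 down with size, 9 positive and a median of -0.29. In the difference it left 4 falling (11.4%, beside 5.11% of all genes), 2 of them with size, and 4 positive. Under it the Flo+ values turned to -0.22 (QCR6), -0.063 (RIP1), -0.34 (CYT1), -0.084 (COX8), -0.055 (ATP4), -0.13 (ATP16) and -0.16 (ATP20). The Flo- values turned to -0.047 (NDE1), -0.29 (SDH1), -0.016 (SDH2), -0.26 (QCR8), -0.39 (RIP1), -0.60 (COX6), -0.31 (COX7), -0.28 (COX8), -0.34 (COX12), -0.41 (COX13), -0.20 (ATP1), -0.27 (ATP2), -0.35 (ATP4), -0.23 (ATP5), -0.34 (ATP7), -0.28 (ATP14), -0.43 (ATP16), -0.40 (ATP17) and -0.43 (ATP18). The differences turned to -0.16 (SDH4), -0.21 (COX4) and -0.19 (COX8). These shifts follow from that scaling, which moved the median of all genes by a like amount. With the deposited normalised counts the turned values were -0.011 (CYT1, Flo+), -0.00463 (COX6, Flo-) and 0.000329 (COX9, difference). In the fit of all 12 samples COX6 was at -0.00940, and with relative log expression the differences of COX9 and ATP4 were 0.033 and 0.00619. For these small turns the cause was not tested.

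Both numbering and study methods pair the samples. With the replicate block 12 members rose in Flo+, and in the difference 1 rose and 2 fell, of which 1 each way had size. At an adjusted p of 0.05 the Flo+ number was 15, and the difference had 1 higher and 3 lower, 1 each way with size. Flo- had 1 member down with size under the deposited normalised counts, without a filter and in the fit of all 12 samples. Leaving out single libraries gave 3 to 27 rising and 2 to 5 with size in Flo+. In Flo- it gave 5 to 10 rising, 1 to 2 falling and 0 to 1 down with size. In the difference it gave 0 to 1 rising, 0 to 3 falling, 0 to 1 with size each way and 4 to 14 positive. The single-gene ranges that crossed 0 were, in Flo+, -0.14 to 0.086 (CYT1) and -0.36 to 0.048 (ATP18). In Flo- they were -0.052 to 0.12 (COX6), -0.016 to 0.54 (COX7) and -0.36 to 0.11 (ATP20). In the difference they were -0.49 to 0.087 (COX7), -0.15 to 0.21 (COX9), -0.28 to 0.016 (ATP1), -0.21 to 0.025 (ATP2), -0.26 to 0.12 (ATP4), -0.20 to 0.093 (ATP5), -0.23 to 0.12 (ATP16), -0.24 to 0.031 (RIP1), -0.20 to 0.27 (SDH4), -0.29 to 0.25 (COX4), -0.14 to 0.20 (COX8), -0.23 to 0.024 (QCR9) and -0.39 to 0.011 (ATP17). The number of libraries, 3 per group, and the sequencing run that coincides with mannose limit these values.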
